A study of Mus musculus with 3 samples.

Results

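The genes described here are 39 mouse genes of DNA replication and the cell cycle that are known as targets or members of the E2F pathway. They were chosen by name, and every probe whose RefSeq transcript accession belongs to one of them was read. All 39 had a probe on the array, among 20284 named genes in all, and they were read by 49 probes, each of them well above background on all 3 arrays. No member was therefore lost to a filter on dim signals.

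E2F proteins are transcription factors that bind DNA with a DP partner. In resting cells they are held by the retinoblastoma family of pocket proteins, and phosphorylation by cyclin-dependent kinases releases them, so that genes for DNA synthesis are transcribed before and during S phase. E2F1, E2F2 and E2F3 are known as activators, E2F4 and E2F5 as partners of pocket proteins in repression, and E2F7 and E2F8 as atypical repressors that need no DP partner. Mouse embryonic stem cells cycle fast and are known for high, weakly phased E2F activity. E2F6 lacks the pocket-protein domain and sits with the PCGF6 protein in the Polycomb complex PRC1.6, which is known for silencing germline genes. The question was whether the replication and cell-cycle genes shift in Pcgf6KO cells as germline genes do.

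RNA came from male mouse embryonic stem cells in serum medium with leukemia inhibitory factor, grown in all groups on embryonic fibroblasts inactivated with mitomycin-C. There was 1 array for Pcgf6KO+ Pcgf6_flag cells, which carry the knockout and a flag-tagged Pcgf6 introduced by lentivirus, 1 for Pcgf6KO cells, edited with Cas9, and 1 for wildtype cells. The sources used here do not name the stem cell line, the number of clones or the promoter of the introduced gene. Each array measured total RNA labelled with Cy3, and since each group has a single array, differences carry no replicate error and no test was possible.

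Levels are given as log2 processed signal relative to the 75th percentile of the same array, so 0 is that percentile, and a difference is one level minus another. The brightest probe stood for a gene, and differences of at least 2-fold, or 1 on the log2 scale, were counted. Repeated spots of one probe had an SD of 0.09, 0.08 and 0.08 log2 units on the Pcgf6KO+ Pcgf6_flag, Pcgf6KO and wildtype arrays. The scanner software's own error came to a median of 0.20 log2 units for a member's difference in each comparison. Both measures cover spots and not cultures. The Pcgf6KO+ Pcgf6_flag array lay alone on its slide and had its own scan, so slide, scan and group cannot be told apart in its comparisons. It also had fewer probes well above background, 60.7%, against 66.0% for Pcgf6KO and 65.3% for wildtype.

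The Pcgf6 probe read 0.42 on the array labelled Pcgf6KO+ Pcgf6_flag, 0.84 in Pcgf6KO and 1.87 in wildtype. It was thus lower in Pcgf6KO than in wildtype by 1.03, but not higher on the array labelled as re-expressing. The labels give a genotype and not a transcript level. The position of this probe with respect to the edited and the introduced sequence was not settled here, so directions drawn from that array rest on its label. All 24 pluripotency markers were well above background on each array, and Pou5f1, the core pluripotency factor, read 4.36, 4.42 and 4.62 in the same order. One source label names muscle, while the cell type label names embryonic stem cells. Of 14 skeletal muscle genes, 11 were well above background on each array, among them Myod1, the myogenic regulator, at 1.58, 1.40 and 1.40 in the same order, and Myf5, Myog and Ckm were so on none. On at least 1 array 16048 of all 20284 named genes were well above background, so the count of 11 does not single out muscle. The summed signal of the 11 was 8.42, 12.3 and 10.1, against 237, 204 and 234 for the 24 pluripotency markers. Of 29 fibroblast markers measured on at least 1 array, 20 were well above background on the array labelled Pcgf6KO+ Pcgf6_flag, 27 in Pcgf6KO and 29 in wildtype, and their summed signal, as multiples of the 75th percentile, was 48.7, 63.6 and 116. The sum leans on bright markers such as Fn1, which read 3.40, 3.31 and 3.39. The median level of the 29 was -2.49, -0.75 and 0.68 in the same order. In bulk RNA, fewer fibroblasts and less RNA per fibroblast cannot be told apart.

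The members lay close together on the 3 arrays. Of 39 members, 0 were at least 2-fold higher in Pcgf6KO than in wildtype, where 5.8% of 14997 named genes measured on both arrays were, and 1 was at least 2-fold lower, where 2.81% of those genes were. That 1 was E2f2. The members' median difference was -0.08, beside -0.02 for all named genes, and 36 of 39 lay within 0.5 log2 units of 0, where 76.7% of all named genes did. The median size of a member's difference, regardless of sign, was 0.14 log2 units, beside 0.23 for all named genes.

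Members are bright on this array, and bright genes differ less. At or above the median level of measured genes lay 33 of the 39 members, and among the 8024 genes in that brighter part 91.4% were within 0.5 log2 units, while 0.81% were higher and 0.648% lower by 2-fold or more. The members' share within 0.5 log2 units, 92.3%, was thus near that of bright genes. Their median of -0.08 was likewise near the -0.07 of bright genes.

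In the comparison of the array labelled Pcgf6KO+ Pcgf6_flag with Pcgf6KO, 0 members passed 2-fold in either direction, where 5.4% of 14241 named genes were higher and 8.37% lower by that much. Among bright genes these shares were 1.08% and 1.79%. The members' median difference was 0.01, beside 0.03 for all named genes, and 37 of 39 members lay within 0.5 log2 units, where 67.3% of all named genes and 84.4% of bright genes did. Against wildtype the same array had 0 members higher by 2-fold or more and 1 lower by as much, again E2f2, where 4.9% and 4.81% of 14193 named genes passed, and 0.735% and 1.21% of bright ones. The median was -0.08, beside -0.02 for all named genes, and 36 of 39 lay within 0.5 log2 units, where 73.8% of all named genes and 89.1% of bright genes did. The 3 comparisons share arrays and are not independent of each other.

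**Figure D1:**
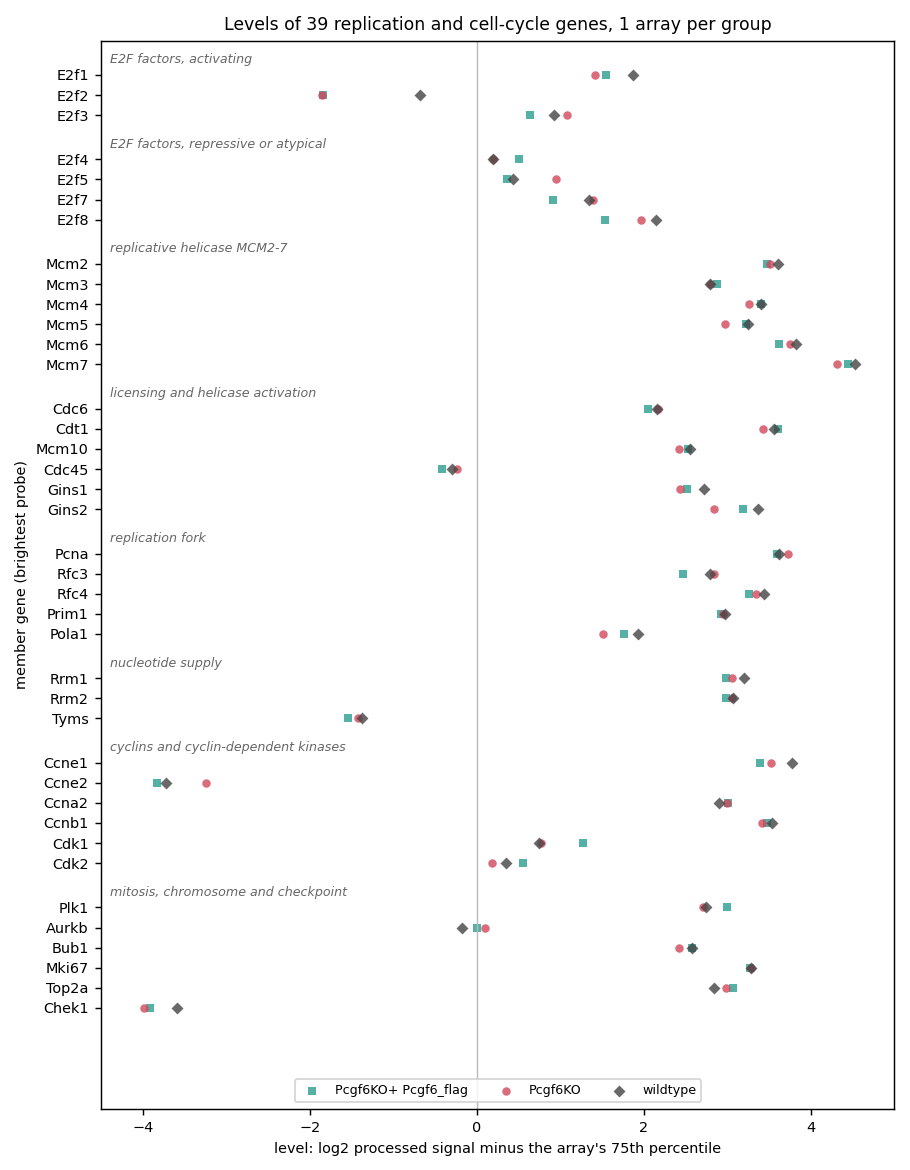
Level of each of the 39 members on each array (x axis, log2 processed signal relative to the 75th percentile of that array), by role, with 1 array per group. Symbols are compared within a row only, since different probes have different brightness. The 3 symbols of most rows nearly coincide, whereas E2f2 reads -1.84 and -1.85 on the 2 knockout arrays and -0.69 in wildtype.

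E2f2 stood apart among the activating E2F genes. Its level was -1.84 on the array labelled Pcgf6KO+ Pcgf6_flag, -1.85 in Pcgf6KO and -0.69 in wildtype. Both arrays of edited cells were low and wildtype was high, 2.24-fold above Pcgf6KO. The difference of Pcgf6KO from wildtype was -1.16 with a scanner error of 0.20, and that of the array labelled as re-expressing from Pcgf6KO was 0.01. E2f2 was read by 1 probe with 1 spot per array. Fibroblast markers were lower on the same 2 arrays, with a median of -1.01 in Pcgf6KO against wildtype. They were lower again in Pcgf6KO+ Pcgf6_flag than in Pcgf6KO, with a median of -1.45, where E2f2 differed by 0.01. The part of fibroblasts in the E2f2 difference was not tested.

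E2f1, the first activator, read 1.54 on the array labelled Pcgf6KO+ Pcgf6_flag, 1.42 in Pcgf6KO and 1.87 in wildtype. It was lower in Pcgf6KO than in wildtype by 0.45, more than 1.96 times its scanner error of 0.20 but less than 2-fold. E2f3, the third activator, read 0.64, 1.08 and 0.92 in the same order on its brighter probe. Its difference of Pcgf6KO from wildtype was 0.16 on that probe and -0.11 on the other, so its probes disagreed in sign, whereas on both probes the array labelled as re-expressing was below Pcgf6KO, by -0.44 and -0.42.

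Among the repressive and atypical members, E2f4 read 0.51 on the array labelled Pcgf6KO+ Pcgf6_flag, 0.19 in Pcgf6KO and 0.19 in wildtype. Its difference of Pcgf6KO from wildtype was -0.0042, and the array labelled as re-expressing was the high one. E2f5, the other pocket-protein partner, read 0.35, 0.95 and 0.43, so Pcgf6KO was the high array, by 0.52 over wildtype, and Pcgf6KO+ Pcgf6_flag lay -0.59 from it. E2f5 was the member with the largest positive difference in Pcgf6KO, at 1.43-fold.

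The atypical repressor gene E2f8 read 1.53, 1.96 and 2.14 on the array labelled Pcgf6KO+ Pcgf6_flag, Pcgf6KO and wildtype, and the first lay -0.61 from wildtype. E2f7 gave opposite readings by probe. Its brighter probe read 0.91, 1.39 and 1.34 in the same order and its dimmer probe -2.33, -3.30 and -3.60. The array labelled as re-expressing was thus lower than wildtype by 0.43 on one probe and higher by 1.27 on the other, and no direction is given for E2f7 in that comparison. In Pcgf6KO against wildtype its probes read 0.05 and 0.30.

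E2f6, the family member of PRC1.6, is not among the 39. It read 1.54 on the array labelled Pcgf6KO+ Pcgf6_flag, 2.32 in Pcgf6KO and 1.76 in wildtype, so that Pcgf6KO was highest, by 0.56 over wildtype. A list of 12 partners and regulators of E2F held DP proteins, pocket proteins, subunits of the DREAM and MYB-MuvB complexes, and Foxm1. Of these 12, 0 differed at least 2-fold in any of the 3 comparisons. In Pcgf6KO against wildtype 5.8% of all named genes were higher and 2.81% lower by that much. The medians of the 12 were -0.20 for Pcgf6KO against wildtype and 0.04 for Pcgf6KO+ Pcgf6_flag against Pcgf6KO. The largest difference in Pcgf6KO was -0.61 for Mybl2, which encodes B-MYB, a driver of G2 and M phase genes. The pocket-protein genes Rb1, Rbl1 and Rbl2 differed by 0.10, 0.09 and -0.18.

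The 6 subunits of the MCM helicase, which is loaded at origins in G1 and unwinds DNA in S phase, lay within 0.3 log2 units in every comparison. Mcm5 had the largest difference, with 3.22 on the array labelled Pcgf6KO+ Pcgf6_flag, 2.97 in Pcgf6KO and 3.24 in wildtype, or -0.27 for Pcgf6KO against wildtype. Mcm7, the subunit whose gene also hosts microRNAs, read 4.45, 4.31 and 4.52, and Mcm2 read 3.47, 3.51 and 3.61. Over the 6 subunits the median difference was -0.12 for Pcgf6KO against wildtype, with 5 of 6 below 0, and 0.11 for Pcgf6KO+ Pcgf6_flag against Pcgf6KO, with 4 of 6 above 0. All of these lie within the 95% span of the scanner error.

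Genes for origin licensing and helicase activation had a median of -0.14 in Pcgf6KO against wildtype. Gins2, a subunit of the GINS complex that turns the loaded MCM ring into an active helicase, read 3.19 on the array labelled Pcgf6KO+ Pcgf6_flag, 2.84 in Pcgf6KO and 3.36 in wildtype. It was lower in Pcgf6KO by 0.52, beyond 1.96 scanner errors, and its partner Gins1 was lower by 0.29, within them. Cdt1 and Cdc6, which load the helicase, differed by -0.13 and 0.01, and Cdc45, the third part of the active helicase, by 0.06. Mcm10, an initiation factor, differed by -0.14.

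Pcna, the sliding clamp, read 3.59 on the array labelled Pcgf6KO+ Pcgf6_flag, 3.72 in Pcgf6KO and 3.62 in wildtype. The clamp loader genes Rfc3 and Rfc4 differed by 0.05 and -0.10 in Pcgf6KO against wildtype, although Rfc3 lay -0.37 from Pcgf6KO on the array labelled as re-expressing. Pola1, the catalytic subunit of the primase-associated polymerase alpha, read 1.76, 1.51 and 1.92, with Pcgf6KO lowest by 0.42, whereas the primase gene Prim1 read 2.92, 2.94 and 2.97. For nucleotide supply, the ribonucleotide reductase genes Rrm1 and Rrm2 and the thymidylate synthase gene Tyms differed by -0.14, -0.01 and -0.06. All 3 lay within 0.25 log2 units of 0 in each of the other comparisons too.

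Ccne1, the cyclin E gene that drives S phase entry, read 3.39 on the array labelled Pcgf6KO+ Pcgf6_flag, 3.52 in Pcgf6KO and 3.77 in wildtype on its brighter probe. Its dimmer probe read 1.21, 1.88 and 1.84 in the same order. In Pcgf6KO against wildtype the probes disagreed in sign, at -0.25 and 0.03. On both probes the array labelled as re-expressing was lowest, at -0.13 and -0.67 from Pcgf6KO and -0.38 and -0.63 from wildtype. The related Ccne2 was read by a dim probe, at -3.83, -3.25 and -3.72, so that Pcgf6KO was highest by 0.47 over wildtype and Pcgf6KO+ Pcgf6_flag lay -0.59 from it. Ccna2 and Ccnb1, the cyclins of S and G2 phase and of mitosis, differed by 0.09 and -0.11 in Pcgf6KO against wildtype. The 3 probes of Ccnb1 spanned -0.11 to 0.08 in that comparison.

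Cdk1, the mitotic kinase gene, read 1.26 on the array labelled Pcgf6KO+ Pcgf6_flag, 0.77 in Pcgf6KO and 0.74 in wildtype on its brightest probe. On that probe the array labelled as re-expressing was highest, by 0.52 over wildtype. The 3 probes of Cdk1 disagreed in sign there, with a range from -0.25 to 0.94, so no direction is given. In Pcgf6KO against wildtype they ranged from 0.02 to 0.23. Cdk2, the kinase partner of cyclins E and A, differed by -0.16 in Pcgf6KO.

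Mki67, the source of the proliferation antigen Ki-67, was among the most even members, with 3.27, 3.28 and 3.29 on the array labelled Pcgf6KO+ Pcgf6_flag, Pcgf6KO and wildtype. A second probe for it read 2.80, 2.80 and 2.78. The topoisomerase gene Top2a differed by 0.14 in Pcgf6KO against wildtype, the mitotic kinase genes Plk1 and Aurkb by -0.03 and 0.28, and the checkpoint kinase gene Chek1, on a dim probe, by -0.40. Bub1, a spindle checkpoint kinase gene, was the only member with repeated spots. Its spots ranged from 2.53 to 2.62 on the array labelled Pcgf6KO+ Pcgf6_flag over 10 spots, from 2.33 to 2.54 in Pcgf6KO over 10 and from 2.52 to 2.65 in wildtype over 9. The Pcgf6KO spots were lower on average by 0.16, and their range overlapped that of wildtype.

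**Figure D2:**
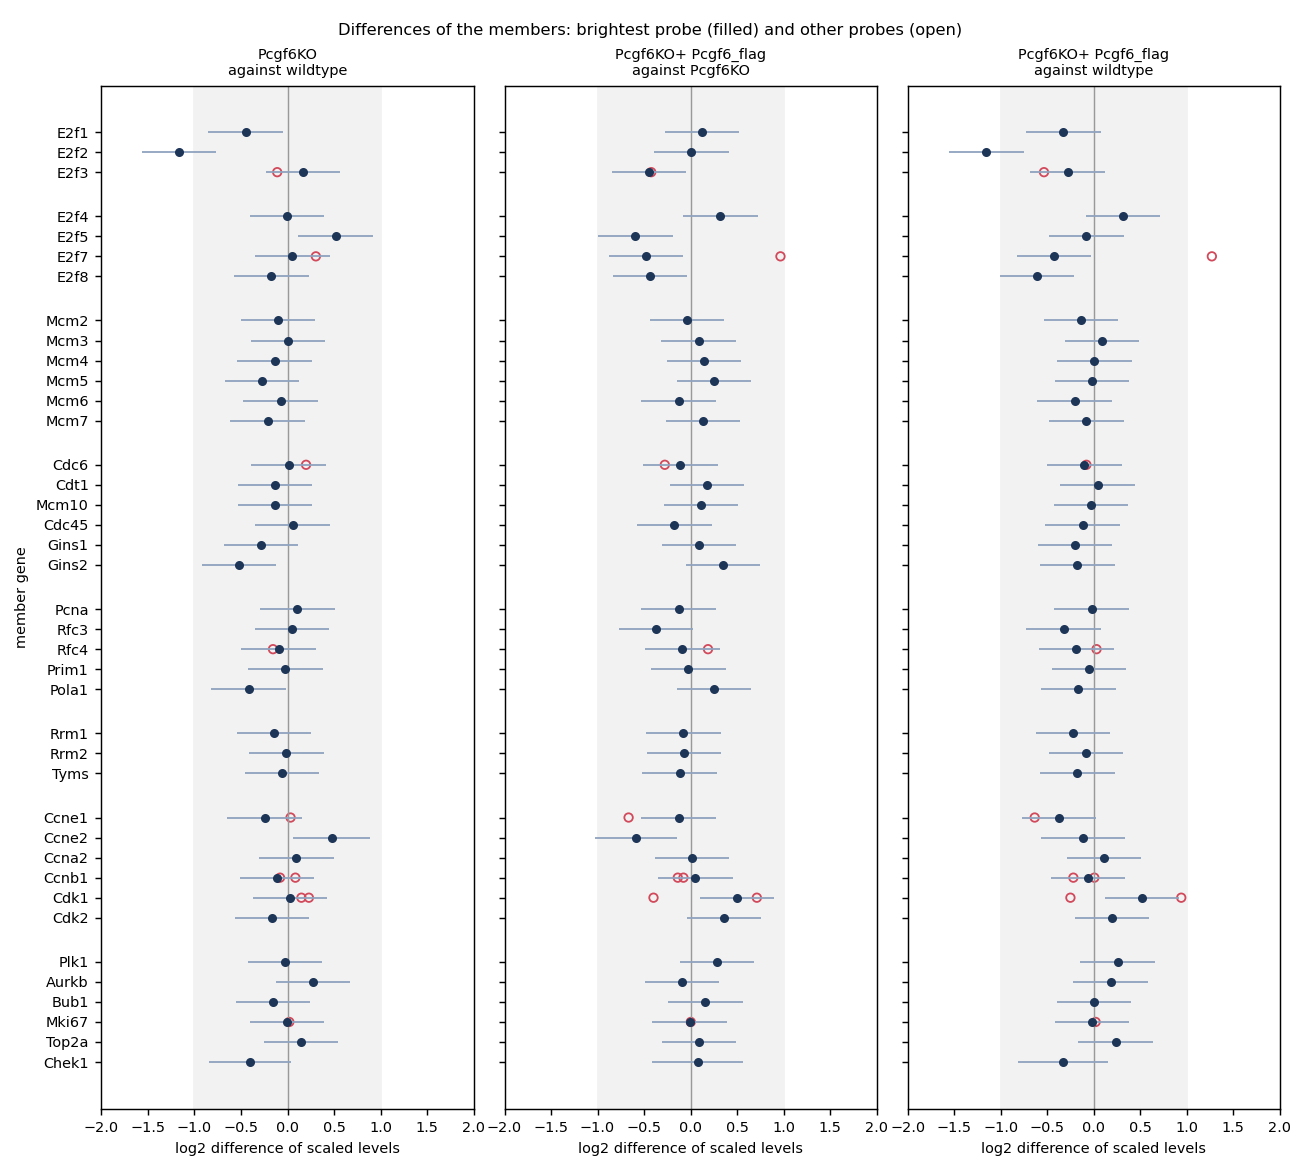
Differences of the members on the log2 scale for the 3 comparisons. Filled points are the brightest probe with bars of 1.96 scanner errors on each side, open points are the other probes of the same gene, and the grey band marks less than 2-fold. E2f2 at -1.16 lies outside the band in both comparisons with wildtype, and an open point of E2f7 at 1.27 lies outside it in the last.

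By the scanner error alone, 6 of 39 members differed by more than 1.96 errors between Pcgf6KO and wildtype, where 28.5% of all named genes did. They were E2f2, Gins2, E2f1 and Pola1, which were lower, and E2f5 and Ccne2, which were higher. Between the array labelled Pcgf6KO+ Pcgf6_flag and Pcgf6KO they were 6 of 39, where 39.3% of all named genes did, with E2f3, E2f5, E2f8 and Ccne2 lower. The other two were Cdk1 and E2f7, whose brightest probes read 0.50 and -0.48, but whose probes disagreed in sign, from -0.40 to 0.71 for Cdk1 and from -0.48 to 0.97 for E2f7. Between that array and wildtype they were 4 of 39, where 32% of all named genes did, namely E2f2 and E2f8, which were lower, and again Cdk1 and E2f7, whose probes disagreed in sign here too. These shares of all named genes were not taken among bright genes alone. Since 33 of the 39 members are bright and bright genes differ less, the shares do not show that members are unusually even. Of the 8 members with several probes, all probes had the same sign for 4 in Pcgf6KO against wildtype and for 3 in each of the other comparisons.

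Other genes of the same processes also differed little. Of 40 further replication genes and 39 further G2 and M phase genes, 0 were at least 2-fold higher or lower in any comparison. In Pcgf6KO against wildtype 5.8% of all named genes were higher and 2.81% lower, but only 0.81% and 0.648% of bright ones. A count of 0 thus does not set these lists apart from bright genes. The medians of the replication and the G2 and M phase genes were -0.03 and -0.07 in Pcgf6KO against wildtype. For the array labelled Pcgf6KO+ Pcgf6_flag against Pcgf6KO they were -0.05 and 0.12. The extremes in Pcgf6KO against wildtype were 0.61 for Brca1, the gene of a recombination repair factor, and -0.48 for Ube2c, the gene of an anaphase ubiquitin conjugase. A further list held 14 regulators, namely the D cyclins, their kinases, inhibitors, Cdc25a and Wee1. On the array labelled Pcgf6KO+ Pcgf6_flag, 2 of 13 measured were at least 2-fold lower than in Pcgf6KO, and likewise 2 of 13 against wildtype. In both comparisons 0 were higher. Of all named genes, 8.37% were lower than in Pcgf6KO and 4.81% lower than in wildtype by that much. In Pcgf6KO against wildtype, 1 of the 14 was at least 2-fold lower, where 2.81% of all named genes were, and 0 were higher.

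That gene was Ccnd2, the cyclin D2 gene, which read -0.97 on the array labelled Pcgf6KO+ Pcgf6_flag, 0.79 in Pcgf6KO and 1.996 in wildtype. The 3 arrays were well apart, and the order was that of the summed fibroblast markers, whose part in the difference was not tested. Cdkn1c, a kinase inhibitor gene, read 1.63, 2.70 and 2.63, at least 2-fold lower on the first array than on Pcgf6KO. The p21 gene Cdkn1a differed by -0.88 in Pcgf6KO against wildtype, and the cyclin D1 gene Ccnd1 by -0.14.

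Germline genes moved far more on the same arrays. Of 42 genes of a germline and meiosis list measured in both, 18 were at least 2-fold higher in Pcgf6KO than in wildtype and 3 lower, with a median of 0.92, and 4 more were higher by a bound only, being not well above background in wildtype. This stands beside 0 and 1 of 39 members and a median of -0.08. The 3 lower were Hsf2bp at -2.41, Meiob at -1.81 and Rpl10l at -1.05. Within 0.5 log2 units lay 8 of the 42 germline genes and 36 of the 39 members. Tdrkh, of the piRNA pathway, read -3.28 on the array labelled Pcgf6KO+ Pcgf6_flag, 0.54 in Pcgf6KO and -3.33 in wildtype, and Tex11, a meiotic crossover gene, read -1.59, 0.68 and -2.67. The largest positive difference of a member, 0.52 for E2f5, was smaller than the germline median. The germline list was known from earlier results of these data to be higher in Pcgf6KO, so its direction is no independent evidence here.

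On the array labelled Pcgf6KO+ Pcgf6_flag against Pcgf6KO the germline median was -0.67, with 4 of 41 genes at least 2-fold higher (Hsf2bp, Meiob, Stag3 and Tex14) and 16 lower, beside a members' median of 0.01 and no member past 2-fold. Only 18 of 48 measured germline genes lay at or above the median level, where 33 of 39 members did, and dim genes differ more between arrays. Among the bright germline genes alone the median in Pcgf6KO against wildtype was 0.74, beside -0.10 for the bright members. Fibroblast markers differed in the other direction, with 14 of 27 at least 2-fold lower in Pcgf6KO than in wildtype and 0 higher.

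**Figure D3:**
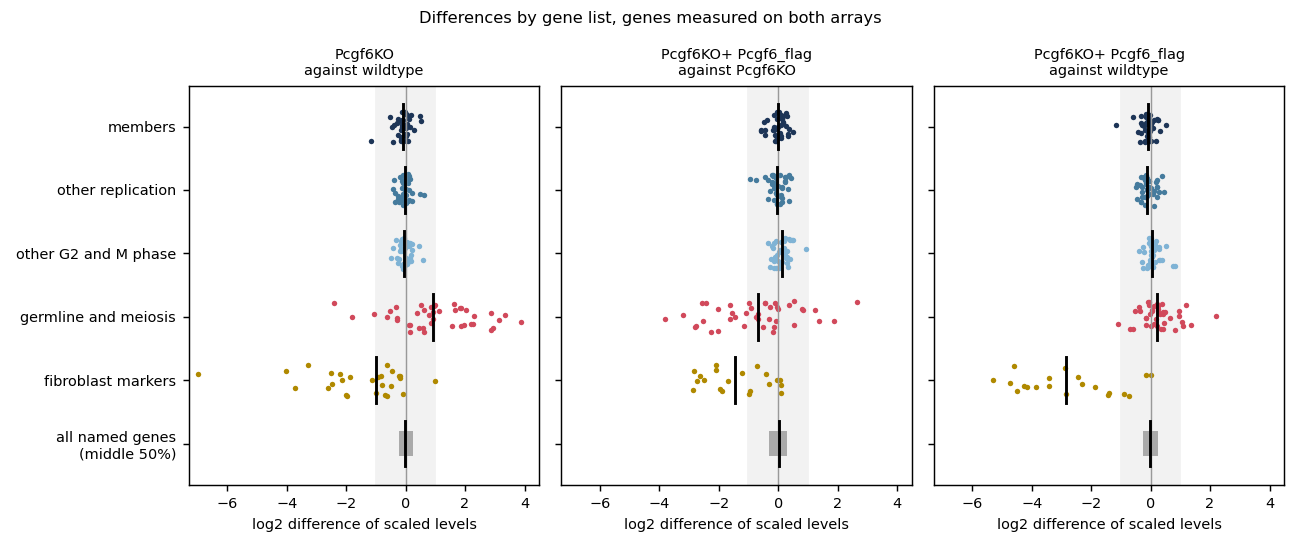
Log2 differences by gene list for the 3 comparisons, with 1 point per gene measured on both arrays, a black line at the list's median and a grey bar for the middle 50% of all named genes. The members and the other replication and G2 and M phase genes stay near 0, with 1 member beyond 2-fold in each comparison with wildtype, whereas germline medians are 0.92, -0.67 and 0.21 and fibroblast medians -1.01, -1.45 and -2.86.

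The members and the germline genes share promoter letters that E2F proteins are known to recognise. RefSeq promoter windows of GRCm38.p6, from 250 bases before to 50 after a gene's start, were held for 31 of the 39 members, with 34 windows. They were searched on both strands for the E2F motif spelled TTTCCCGC, TTTGGCGC, TTTCGCGC or TTTGCCGC. This motif was in 13 of 34 member windows, or 38.2%, against 2.26% of all 32851 windows, and in 8 of 51 germline windows, or 15.7%. A shorter core, TTCCCGC, which the first of those spellings contains, was in 14 member windows, or 41.2%, in 16 germline windows, or 31.4%, and in 4.60% of all windows. The members were chosen as known genes of the E2F pathway, so their excess over all windows is no independent evidence. The windows were not matched for base composition.

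The E-box CACGTG, which MYC, MAX and MGA proteins are known to bind, divided the lists the other way. It was in 2 of 34 member windows, or 5.88%, against 7.15% of all windows, but in 19 of 51 germline windows, or 37.3%. No member window held both E2F letters and an E-box, 0 of 34, whereas 7 of 51 germline windows had both, against 0.572% of all windows. Some genes have several windows, which can overlap. Counted by gene, 16 of 42 germline genes had an E-box and 6 had both in a window, beside 2 and 0 of 31 members. The cell cycle homology region element CHR, spelled TTTGAA, which the MYB-MuvB complex is known to bind, was in 9 member windows, or 26.5%, in 27 of 37 windows of the other G2 and M phase genes, or 73.0%, and in 17.9% of all windows. A match is a string of letters and was not tested for binding.

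**Figure D4:**
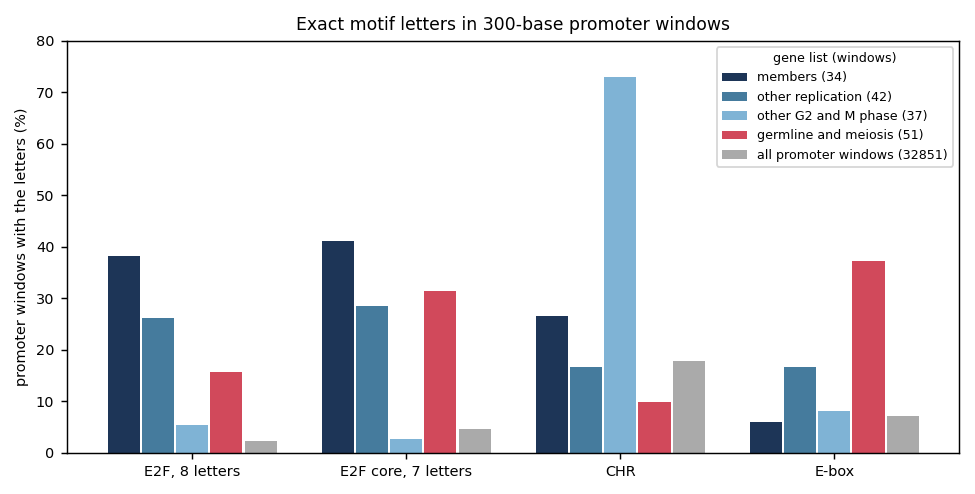
Share of 300-base promoter windows (y axis, percent) that hold each motif's exact letters on either strand, for the members, 3 other lists and all windows. Members lead for the E2F letters at 38.2%, germline genes for the E-box at 37.3%, and the other G2 and M phase genes for CHR at 73.0%.

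Windows of 4 genes show these letters in genes that differed little and in genes that differed more. Capitals mark matches to the E2F motif, its core, CHR or the E-box, and each window is read 5′ to 3′ along the gene's strand in GRCm38.p6. E2f2, the member past 2-fold, is at chr4:136172024-136172323 on the plus strand and has 1 E2F match. Mcm5, at chr8:75109259-75109558 on the plus strand, has a pair of overlapping E2F matches, and Cdk1, at chr10:69352863-69353162 on the minus strand, has an E2F match and 2 CHR matches. Slc25a31, the germline gene of a testis ADP/ATP carrier, is at chr3:40708621-40708920 on the plus strand and has an E2F match with its core and an E-box.
E2f2: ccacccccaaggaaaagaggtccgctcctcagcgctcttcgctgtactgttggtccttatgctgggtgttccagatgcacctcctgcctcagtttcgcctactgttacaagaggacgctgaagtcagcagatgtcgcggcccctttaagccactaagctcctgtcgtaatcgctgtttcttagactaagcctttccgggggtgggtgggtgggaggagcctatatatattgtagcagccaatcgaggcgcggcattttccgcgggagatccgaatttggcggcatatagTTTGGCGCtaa
Mcm5: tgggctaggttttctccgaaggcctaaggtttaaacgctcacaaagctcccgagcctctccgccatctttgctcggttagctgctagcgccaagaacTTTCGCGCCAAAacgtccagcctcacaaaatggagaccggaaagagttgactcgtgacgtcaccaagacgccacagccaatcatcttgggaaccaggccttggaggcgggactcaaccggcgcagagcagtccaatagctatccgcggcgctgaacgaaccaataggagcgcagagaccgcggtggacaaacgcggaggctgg
Cdk1: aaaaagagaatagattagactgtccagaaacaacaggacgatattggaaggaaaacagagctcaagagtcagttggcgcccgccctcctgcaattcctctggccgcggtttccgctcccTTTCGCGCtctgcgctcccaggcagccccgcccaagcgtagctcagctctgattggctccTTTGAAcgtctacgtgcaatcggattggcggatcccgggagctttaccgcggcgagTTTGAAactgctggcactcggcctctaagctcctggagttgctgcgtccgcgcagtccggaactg
Slc25a31: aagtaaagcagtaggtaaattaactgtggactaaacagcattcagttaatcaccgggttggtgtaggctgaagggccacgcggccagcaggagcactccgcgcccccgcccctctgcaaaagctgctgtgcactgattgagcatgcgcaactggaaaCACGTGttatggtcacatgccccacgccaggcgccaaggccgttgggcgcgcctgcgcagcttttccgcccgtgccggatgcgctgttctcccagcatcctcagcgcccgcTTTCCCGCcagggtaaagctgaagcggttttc

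Of these 4, Slc25a31 had the largest difference in Pcgf6KO. It read -3.90 on the array labelled Pcgf6KO+ Pcgf6_flag, -1.87 in Pcgf6KO and -3.90 in wildtype, so that Pcgf6KO alone was high, by 2.03 over wildtype. Mcm5 and Cdk1, which match another spelling of the E2F motif and lack the core, differed by -0.27 and 0.02 in that comparison. Slc25a31 was not typical of genes with its letters. Among 6 measured germline genes with E2F letters and an E-box, it was the only 1 at least 2-fold higher, and their median was 0.37. Of 17 members with E2F motif or core letters, 0 were 2-fold higher. The highest was E2f3 at 0.16. E2f3 is 1 of 13 members that hold the core, and these ran from -0.42 for Pola1 to 0.16 in Pcgf6KO against wildtype. Whether the core or the E-box goes with a rise was not tested. E2f2 differed by -1.16, in the opposite direction to Slc25a31.

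The differences between Pcgf6KO and wildtype were also set beside the letters in the windows. The 17 members with E2F motif or core letters had a median difference of -0.10 between Pcgf6KO and wildtype, beside -0.08 for the 14 members with a window but no such letters. Genes were then classed by letters in any of their windows, so that both may come from different windows, as in E2f3. Of 1170 measured genes with E2F letters and no E-box, 3.59% were at least 2-fold higher in Pcgf6KO. The share was 6.06% of 1172 genes with an E-box and no E2F letters, 4.88% of 164 genes with both and 5.86% of 9415 genes with neither. The lower side held 1.71%, 2.3%, 1.22% and 2.76% of the same classes. Medians of the 4 classes ran from -0.04 to -0.02.

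The 15 measured germline genes with E2F motif or core letters had a median difference of 0.63, with 4 higher and 2 lower in Pcgf6KO by 2-fold or more. The 21 with a window but no E2F letters had a median of 1.62, with 12 higher and 0 lower by that much. The difference between these small subsets was not tested. These are descriptions of a list chosen with earlier results known.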

How the data were processed

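Total RNA was hybridised to 3 1-colour Agilent arrays, 1 per genotype label. Per the file headers, spots were extracted with Agilent Feature Extraction 11.5.1.1, while the submitters' processing notes name 10.7. The deposited values are spot intensities on a linear scale, background-subtracted by the scanner software, and the deposited value table held the same intensity for 55249 of 55249 single-spot probes per array within a relative tolerance of 1e-06, so it is linear, unscaled and without a direction. Its column medians were 313, 273 and 243 for Pcgf6KO+ Pcgf6_flag, Pcgf6KO and wildtype.

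Control spots and 192, 158 and 141 outlier spots on those arrays were left out, repeated spots were averaged, and log2 intensity was set relative to the 75th percentile. A probe was measured where most spots were well above background. Accessions named 26762 of 55681 probes through RefSeq genes of GRCm38.p6, and 16048 genes were measured on at least 1 array. The array design is on mm9, so no coordinates of the probes are given. Precision is limited by how few arrays there are.

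The members and gene lists were chosen with earlier results of these data known. All members are reported. Of the other lists, genes past 2-fold, the largest differences and canonical markers were named, and Brca1, Ube2c, Slc25a31, Cdkn1a, Ccnd1, the muscle genes and the pocket-protein genes were named after their values were seen. Alternatives tried included limma 3.58.1's normexp correction of median spot signals (offset 50), other scalings, the deposited table, other filters, the mean over probes, kept outlier spots and thresholds of 1.5-fold and 3-fold. Python 3.11.15, pandas 2.3.3 and R 4.3.3 were used.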

Additional observations from a re-analysis of the deposited data

How the results depend on the processing

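With 1 array per group, replicates could not be left out and slide could not be fitted as a block. No paired analysis was possible because each group has 1 array. The count of members at least 2-fold higher was 0 in all 3 comparisons under each alternative. E2f2 kept its direction, between -1.20 and -1.03 for Pcgf6KO against wildtype, and between -1.28 and -0.92 for Pcgf6KO+ Pcgf6_flag against wildtype. Past 2-fold lower there were 0 members with wildtype as the comparison at a 3-fold threshold and among bright genes only, since E2f2 is dimmer, and 0 for Pcgf6KO+ Pcgf6_flag against wildtype without scaling, an alternative chosen after seeing the data. At 1.5-fold 2 members were lower for Pcgf6KO+ Pcgf6_flag against Pcgf6KO (E2f5 and Ccne2) and 2 against wildtype (E2f2 and E2f8). Without scaling the median of all genes was shifted to 0.11, 0.13 and 0.22 in Pcgf6KO against wildtype, Pcgf6KO+ Pcgf6_flag against Pcgf6KO and Pcgf6KO+ Pcgf6_flag against wildtype, and the members' median was 0.0565, 0.12 and 0.16. The members' median was thus below that of all genes there too, and it was below 0 in both comparisons with wildtype under every scaling tried. For Pcgf6KO+ Pcgf6_flag against Pcgf6KO, where it was 0.01, it was -0.09 under quantile normalization, -0.08 under median scaling and -0.02 with the percentile taken over probes measured on all arrays. With median scaling the members' median for Pcgf6KO+ Pcgf6_flag against wildtype was -0.20, and the germline median 0.0815. The germline median for Pcgf6KO against wildtype was 1.05 without a filter on dim probes, 1.05 without scaling and 0.74 among bright genes. For Pcgf6KO+ Pcgf6_flag against Pcgf6KO it was -0.94 without that filter and -0.44 among bright genes, and against wildtype it was 0.44 without scaling. As a mean over probes E2f7 was 0.42 for Pcgf6KO+ Pcgf6_flag against wildtype, where its brightest probe gave -0.43.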
